A study of Mus musculus with 18 samples.

Results

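The 10 genes described here are NRF2 antioxidant targets, chosen by name from the rows of a deposited count matrix that held 29875 mouse genes. They were Hmox1, Nqo1, Gclc, Gclm, Slc7a11, Txnrd1, Prdx1, Srxn1, Osgin1, and G6pdx, and each was taken row by row across every library. RNA was sequenced from DCs that had been embedded for migration in collagen gels of 4 densities, or kept in the same chambers without collagen, which asked how the density of the matrix around a moving DC bears on its transcripts. All 18 libraries came from C57Bl6/J wild-type bone marrow of mice aged 8 to 12 weeks, grown with GM-CSF and stimulated at day 8 with 200 ng/ml LPS (the bacterial stimulus that matures DCs) for 24 hours. The gels held bovine collagen at 1.7, 2.6, 3.5, or 4.4 mg/ml, with 3 libraries each, and the 2 suspension groups had 3 libraries each. RNA was collected 5 hours after the chemokine CCL19 was introduced, so that LPS maturation was common to every group and no unstimulated DCs were included.

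One suspension group was titled as containing CCL19, and the other title named no chemokine, but the names of the sequencing libraries gave the opposite assignment. In what follows, suspension + and suspension − refer to the titles alone, and a direction for CCL19 was not read from them. Replicates 1, 2, and 3 each shared a date and a sequencing lane across all 6 groups, according to those library names. The labels called the replicates biological, and whether they came from separate animals was not given in the sources used here.

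NRF2 is the transcription factor that turns on defense against oxidants and electrophiles. In resting cells, KEAP1 holds NRF2 and hands it to the CUL3 and RBX1 ubiquitin ligase for degradation, whereas oxidized or alkylated KEAP1 releases it. NRF2 then pairs with a small MAF protein at antioxidant response elements, from which BACH1 is displaced. In DCs, this program is known for limiting oxidative stress and restraining inflammatory output after LPS.

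The depth ranged from 13062944 to 28059839 counts per library, and all 10 genes passed the filter on low counts along with 13844 genes in total. Levels below are library-scaled counts (CPM, with edgeR's trimmed mean of M-values). By total counts alone, before that scaling, 3 counts corresponded to at most 0.230 CPM. The DC markers Itgax, H2-Ab1, Cd74, Cd86, Ccr7, Zbtb46, Flt3, and Fscn1 summed to between 15084 and 51530 CPM, and none of the 8 was at 0 in every library. The macrophage markers, by contrast, had a median sum of 1712 CPM in replicate 1, 628 CPM in replicate 2, and 334 CPM in replicate 3. Eosinophil markers summed to 117 to 1338 CPM in suspension (median 342) and to 14.0 to 167 CPM in collagen (median 43.0). Neutrophil markers summed to 526 to 6971 CPM in suspension (median 1769) and to 913 to 4268 CPM in collagen (median 1503). Their lowest sum in replicate 2 was 1023 CPM, in the 4.4 mg/ml gel. The DC markers had medians of 24666, 33156, and 46639 CPM in replicates 1, 2, and 3. The part of these cell types in the results below was not tested. One library, 2.6 mg/ml replicate 3, was the deepest and stood apart in the dependence of its counts on GC content (Spearman rho = -0.543 across genes, against -0.304 to 0.414 in the other libraries).

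Promoter sequences from RefSeq (build GRCm38.p6) were searched because antioxidant response elements are the sites through which NRF2 acts. Windows of 250 bases before to 50 bases after a transcription start were found for 8 of the 10 genes, and Hmox1 and Gclc had none. The core of the element was taken as TGACNNNGC on either strand, and 5 of the 10 windows of these 8 genes held a match (Txnrd1 had 3 windows, of which 1 matched), whereas 12.4% of 32851 promoter windows of the same length did. The windows below are shown for 5 genes that were called in the comparisons that follow and for G6pdx, which was not called, each covering the 150 bases before the start, with the core in capitals for Gclm, Txnrd1, Prdx1, and G6pdx.
Gclm, chr3:122245407-122245556, plus strand: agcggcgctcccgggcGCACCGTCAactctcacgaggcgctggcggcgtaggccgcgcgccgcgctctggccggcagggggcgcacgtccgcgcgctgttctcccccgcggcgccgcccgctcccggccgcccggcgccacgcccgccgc
Txnrd1, 1 of 3 annotated starts, chr10:82859056-82859205, plus strand: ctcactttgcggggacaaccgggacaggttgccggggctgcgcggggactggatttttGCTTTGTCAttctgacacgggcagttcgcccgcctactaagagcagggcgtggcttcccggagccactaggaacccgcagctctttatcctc
Prdx1, chr4:116685449-116685598, plus strand: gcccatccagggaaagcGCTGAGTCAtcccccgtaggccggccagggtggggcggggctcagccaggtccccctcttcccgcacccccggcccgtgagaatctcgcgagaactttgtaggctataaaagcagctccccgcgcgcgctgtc
G6pdx, chrX:74428881-74429030, minus strand: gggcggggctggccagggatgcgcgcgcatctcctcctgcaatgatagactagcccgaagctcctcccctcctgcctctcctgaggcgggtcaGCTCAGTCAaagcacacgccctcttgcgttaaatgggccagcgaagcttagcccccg
Slc7a11, chr3:50443614-50443763, minus strand: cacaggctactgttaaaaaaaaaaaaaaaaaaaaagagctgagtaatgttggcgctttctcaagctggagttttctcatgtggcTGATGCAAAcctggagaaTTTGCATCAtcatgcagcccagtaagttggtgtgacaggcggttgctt
Osgin1, chr8:119436997-119437146, plus strand: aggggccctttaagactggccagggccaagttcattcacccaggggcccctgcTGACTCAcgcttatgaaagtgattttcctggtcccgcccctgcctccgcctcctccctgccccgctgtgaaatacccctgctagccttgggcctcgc

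The cores of Gclm, Txnrd1, Prdx1, and G6pdx all lay on the strand opposite to transcription and read TGACGGTGC, TGACAAAGC, TGACTCAGC, and TGACTGAGC, respectively. In Slc7a11, the capitals mark a pair of facing matches to TGATGNAAN, the composite element bound by ATF4, which 3.95% of all windows held. In Osgin1, they mark TGANTCA, the site bound by AP-1 factors, which 7.81% of all windows held and which was also found in Srxn1 and Prdx1. The Prdx1 match to the AP-1 site at bases -131 to -125 overlapped its antioxidant core at -133 to -125. The TGACNNNGC match of Srxn1 lay after the start, at bases 29 to 37, and neither Nqo1 nor Osgin1 held a match to TGACNNNGC in the window searched. Other forms of the antioxidant response element were not searched, so a gene without this match can still hold one.

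Compared per kilobase of exon, the 10 genes covered a wide range of levels. The length was that of all annotated exons of a gene merged, from 1553 bases for Nqo1 to 13922 for Slc7a11. Which transcripts the DCs made was not examined, so the order depends in part on the annotation. In suspension, the medians over 6 libraries were 132 CPM per kilobase for G6pdx, 82.0 for Prdx1, 67.4 for Hmox1, and 44.3 for Srxn1. Txnrd1 followed at 19.7, Osgin1 at 11.8, Nqo1 at 11.03, Slc7a11 at 9.39, Gclm at 8.05, and Gclc at 4.85 CPM per kilobase. In collagen, over 12 libraries, Hmox1 had the highest median at 401 CPM per kilobase, ahead of Prdx1 at 227, G6pdx at 138, and Srxn1 at 60.2. Txnrd1 stood at 45.2, Gclm at 22.2, Slc7a11 at 19.8, Gclc at 16.6, Nqo1 at 13.6, and Osgin1 at 11.9 CPM per kilobase. Ranges pooled over libraries overlapped between neighbors in both orders. Within single libraries, some neighbors still kept their order, such as Srxn1 above Txnrd1 in all 6 suspension libraries and Txnrd1 above Gclm in all 12 gel libraries.

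When all collagen gels were compared with both suspension groups, all 10 genes had positive log2 fold changes (8 when libraries were scaled by total counts, under which Srxn1 stood at -0.13 and G6pdx at -0.04), and 3 passed the threshold (false discovery rate of 0.1 in edgeR's quasi-likelihood test, adjusted over all genes tested). Those were Gclm, Txnrd1, and Slc7a11, and 7.78% of all genes tested passed in this direction, whereas 12.4% passed as lower. The median log2 fold change was 1.04 over the 10 genes and 0.00 over all genes tested. Because the replicates shared a date and a lane, the same comparison was fitted with the replicate as a block, and 6 of the 10 genes then passed as higher, adding Hmox1, Gclc, and Prdx1, against 15.6% of all genes as higher and 19.3% as lower. These were the 6 genes whose 4 gel libraries all lay above both suspension libraries within each of the 3 replicates, an arrangement that 2.43% of all genes showed. It was read from the same libraries as the fit and is not separate evidence. The 10 genes were chosen with earlier results of these data known. Nqo1, Srxn1, Osgin1, and G6pdx passed in neither fit. The eosinophil markers given above had a lower median in the gels than in suspension, with ranges that overlapped across but not within replicates. In replicate 1, the gels summed to 35.9 to 59.6 CPM, against 117 and 147 CPM in suspension. Replicate 2 had 65.6 to 167 CPM in the gels, against 185 and 1338 CPM. Replicate 3 had 14.0 to 46.3 CPM in the gels, against 500 and 935 CPM. The macrophage markers had a higher median in the gels (690.3 CPM, against 487 CPM in suspension), again with overlap. In replicate 1, all 4 gels (1686 to 1780.1 CPM) lay above both suspension libraries (843 and 1149 CPM) for these markers, and in replicates 2 and 3 the 4.4 mg/ml gel was the highest of the 6 libraries, at 1081 and 657 CPM. In bulk RNA, a smaller number of expressing cells cannot be told apart from less RNA per cell.

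**Figure D1:**
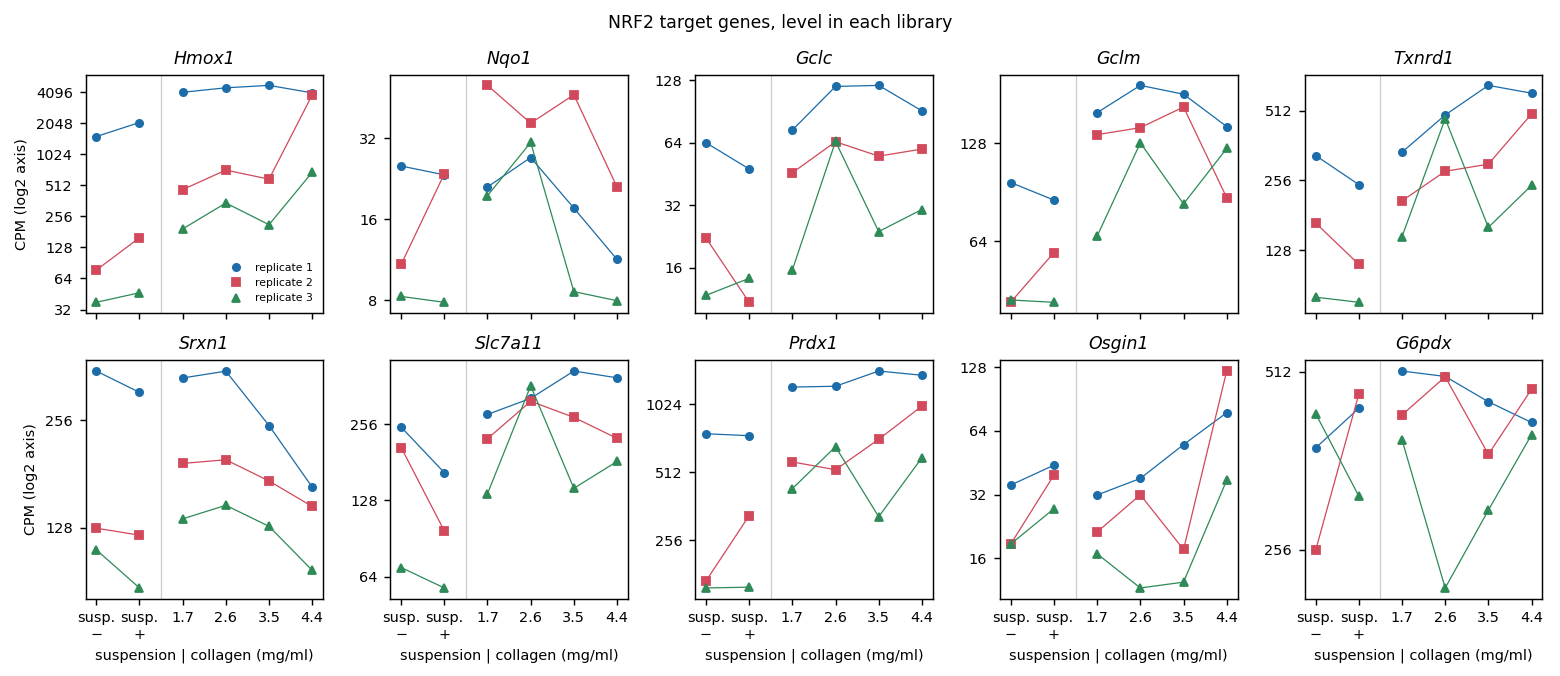
Level of each NRF2 target gene in each of the 18 libraries, in CPM on a log2 axis, for suspension − and suspension + on the left and the 4 collagen densities in mg/ml on the right. Points are single libraries, colors and shapes mark the replicate, and lines join libraries of 1 replicate. Within each replicate, the gels lie above both suspension libraries for 6 genes, an arrangement that 2.43% of all genes showed. Replicate 1 lies above replicate 3 in 6 of 6 groups for Hmox1.

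Hmox1 encodes heme oxygenase 1, which breaks heme down to biliverdin, carbon monoxide, and iron, and which is repressed by BACH1 as well as induced by NRF2. The gene lies on chromosome 8 (bases 75093621 to 75100589, plus strand, GRCm38). In replicate 1, Hmox1 was at 1522 and 2081 CPM in suspension − and suspension +, and at 4089, 4517, 4769 and 4034 CPM in the gels. Hmox1 in replicate 2 had 77.2 and 159 CPM in suspension, then 465, 719.8, 587 and 3852 CPM across the gels. For Hmox1, replicate 3 held 37.6 and 46.5 CPM in suspension, and its gels held 193, 345, 213 and 685 CPM. Within each replicate, all 4 gels lay above both suspension libraries, yet the suspension libraries of replicate 1 lay above 7 of the 12 gel libraries. Hmox1 was highest in replicate 1 and lowest in replicate 3 in 6 of 6 groups. Its median over replicate 1 was 20.0-fold that over replicate 3, and the summed macrophage markers had the same order of replicates by their medians.

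The difference between gels and suspension within a replicate was 1.29, 3.07, and 2.91 on the log2 scale in replicates 1, 2, and 3. Without the block, the fold change of Hmox1 was 1.62 ± 1.02 (log2, SE) and did not pass (edgeR, adjusted p = 0.325). With the block, it was 2.45 ± 0.35 (adjusted p = 0.000101), and it passed in each of the 18 fits that left out 1 library, from 2.23 to 2.72. Without the block, leaving out either suspension library of replicate 1 raised it to as much as 3.28 and past the threshold, at adjusted p values down to 0.0734.

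At single densities with the block, Hmox1 was higher by 1.74 ± 0.41, 2.31 ± 0.42, 1.97 ± 0.41, and 3.77 ± 0.44 (log2) from the 1.7 to the 4.4 mg/ml gel. The adjusted p values were 0.0474, 0.00232, 0.00659, and 3.34e-05 in that order, and the 4 comparisons share the suspension libraries. At 4.4 mg/ml, the level in replicate 2 was 3852 CPM, whereas the other gels of that replicate held 465 to 719.8 CPM. None of the single densities passed without the block, where the value reached 2.15 ± 1.29 at 4.4 mg/ml (adjusted p = 0.318), and leaving out the replicate 1 library turned the values at the other 3 densities negative, down to -0.97 at 1.7 mg/ml. At 1.7 mg/ml, the call with the block was lost in 4 of 18 single omissions, namely any of the 1.7 mg/ml libraries or suspension + replicate 3.

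Nqo1 encodes a quinone reductase that uses NAD(P)H to keep quinones from redox cycling. In replicate 1, Nqo1 was at 25.2 and 23.4 CPM in suspension − and suspension +, and at 21.1, 27.1, 17.6 and 11.4 CPM in the gels. Nqo1 in replicate 2 had 10.9 and 23.6 CPM in suspension, then 50.2, 36.3, 46.3 and 21.1 CPM across the gels. For Nqo1, replicate 3 held 8.28 and 7.88 CPM in suspension, and its gels held 19.6, 30.8, 8.63 and 7.99 CPM. The gels lay above suspension in replicates 2 and 3 on average, by 1.18 and 0.82 on the log2 scale, and below it in replicate 1, by -0.40. The comparison of all gels with suspension gave 0.52 ± 0.38 (log2, adjusted p = 0.401), and 0.49 ± 0.27 with the block (adjusted p = 0.184). The value with the block ranged from 0.33 without suspension − replicate 2 to 0.81 without suspension − replicate 1, and it passed without either suspension library of replicate 1 (adjusted p = 0.0343 and 0.0973). With all libraries, Nqo1 passed at 2.6 mg/ml with the block (1.07 ± 0.36, adjusted p = 0.0506), a call that was lost without 2.6 mg/ml replicate 3, where the value was 0.65, and without either suspension library of replicate 3. The 4.4 mg/ml library was the lowest gel in 3 of 3 replicates.

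Glutathione synthesis was represented by 3 genes. Gclc and Gclm encode the catalytic and the modifier subunit of glutamate-cysteine ligase, the rate-limiting enzyme of glutathione synthesis, and Slc7a11 encodes the xCT subunit of the transporter that imports cystine in exchange for glutamate. All 3 were higher in the gels than in suspension within every replicate.

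Gclm (chromosome 3, bases 122245557 to 122270732, plus strand) had the smallest adjusted p of the 10 genes without the block. In replicate 1, Gclm was at 97.0 and 85.7 CPM in suspension − and suspension +, and at 159, 193, 181 and 144 CPM in the gels. Gclm in replicate 2 had 41.6 and 59.1 CPM in suspension, then 136, 143, 166 and 87.2 CPM across the gels. For Gclm, replicate 3 held 42.2 and 41.5 CPM in suspension, and its gels held 66.4, 129, 83.4 and 124 CPM. The 6 suspension libraries spanned 41.5 to 97.0 CPM and the 12 gels 66.4 to 193 CPM, so that the ranges overlapped across but not within replicates. The fold change was 1.12 ± 0.27 (log2, adjusted p = 0.0122, edgeR) and 1.17 ± 0.18 with the block (adjusted p = 0.000152). Gclm passed in all 18 single omissions under both fits, between 1.01 and 1.42 without the block. At single densities, Gclm was called at 2.6 mg/ml (1.34 ± 0.35, adjusted p = 0.0472) and 3.5 mg/ml (1.23 ± 0.35, adjusted p = 0.0797) without the block. With the block, all 4 densities were called, at 0.99 ± 0.23, 1.40 ± 0.23, 1.25 ± 0.23, and 1.05 ± 0.23 from 1.7 to 4.4 mg/ml. Without the block, 5 of 18 omissions ended the call at 2.6 mg/ml (each gel of that density, suspension + replicate 2, and suspension − replicate 3) and 9 ended it at 3.5 mg/ml. Those 9 were each gel of that density, replicate 2 at 1.7 and 2.6 mg/ml, and each suspension library of replicates 2 and 3. With the block, the call at 1.7 mg/ml was lost without its replicate 1 or 2 or without suspension + replicate 3, and the value at 4.4 mg/ml fell to 0.69 without its replicate 3 (adjusted p = 0.0641).

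In replicate 1, Gclc was at 64.2 and 47.9 CPM in suspension − and suspension +, and at 73.8, 119.8, 121 and 91.4 CPM in the gels. Gclc in replicate 2 had 22.3 and 10.9 CPM in suspension, then 46.0, 64.9, 55.3 and 59.8 CPM across the gels. For Gclc, replicate 3 held 11.8 and 14.3 CPM in suspension, and its gels held 15.6, 65.1, 24.0 and 30.6 CPM. The 2.6 mg/ml gel held the highest Gclc level of replicates 2 and 3, and both suspension libraries were below all gels in every replicate. The within-replicate differences of Gclc were 0.84, 1.84, and 1.17 (log2). Over all gels, the change was 1.14 ± 0.47 (adjusted p = 0.118) without the block and 1.27 ± 0.21 (adjusted p = 0.000391) with it. The call without the block appeared when any 1 of 4 libraries was left out, namely replicate 3 at 1.7 or 3.5 mg/ml or either suspension library of replicate 1, with adjusted p values down to 0.0360. With the block, Gclc passed at 2.6 mg/ml (1.84 ± 0.28), 3.5 mg/ml (1.25 ± 0.28), and 4.4 mg/ml (1.26 ± 0.28), and stood at 0.74 ± 0.28 at 1.7 mg/ml (adjusted p = 0.209).

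In replicate 1, Slc7a11 was at 249 and 165 CPM in suspension − and suspension +, and at 279, 323, 414 and 389.6 CPM in the gels. Slc7a11 in replicate 2 had 207 and 96.9 CPM in suspension, then 224, 315, 272 and 225 CPM across the gels. For Slc7a11, replicate 3 held 69.5 and 57.7 CPM in suspension, and its gels held 136, 362, 143 and 182 CPM. For Slc7a11, the highest of the 18 levels was 414 CPM at 3.5 mg/ml in replicate 1, and 362 CPM in 2.6 mg/ml replicate 3 was the highest of that replicate, ahead of 182 CPM in its 4.4 mg/ml gel. The change over all gels was 0.98 ± 0.31 (log2, adjusted p = 0.0494), or 1.07 ± 0.19 with the block (adjusted p = 0.000689). Without the block, the call was lost when suspension + replicate 2, suspension + replicate 3, or suspension − replicate 3 was left out, with adjusted p values up to 0.121, and with the block it held in all 18 omissions. At 2.6 mg/ml, the value was 1.29 ± 0.41 without and 1.52 ± 0.26 with the block, and 1.07 with the block once 2.6 mg/ml replicate 3 was left out (adjusted p = 0.0151). Without the block, that call was lost in 8 of 18 omissions, namely each gel of that density, replicate 2 at 1.7 or 3.5 mg/ml, suspension + replicate 2 or 3, and suspension − replicate 3. With the block, Slc7a11 was also called at 3.5 mg/ml (1.03 ± 0.25, lost without replicate 1 of that gel) and at 4.4 mg/ml (1.02 ± 0.25), and stood at 0.71 ± 0.26 at 1.7 mg/ml (adjusted p = 0.177). Slc7a11 overlaps Gm37498 and Gm37692 on its own strand and Gm2345 on the other, Gclm overlaps Gm17494 on the other strand, and how reads in such overlaps were assigned was not given in the sources used here.

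The thioredoxin arm was represented by Txnrd1, which encodes the cytosolic reductase that recharges thioredoxin with NADPH, by Prdx1, a peroxiredoxin that removes hydrogen peroxide, and by Srxn1, the sulfiredoxin that repairs overoxidized peroxiredoxins. Txnrd1 and Prdx1 were higher in the gels within every replicate, and Srxn1 was not.

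In replicate 1, Txnrd1 was at 328 and 246 CPM in suspension − and suspension +, and at 339, 489.7, 657 and 608 CPM in the gels. Txnrd1 in replicate 2 had 168 and 112 CPM in suspension, then 209, 281, 301 and 495.1 CPM across the gels. For Txnrd1, replicate 3 held 80.6 and 76.6 CPM in suspension, and its gels held 147, 472, 161 and 244 CPM. Txnrd1 levels of all gels in replicates 1, 2, and 3 exceeded their suspension libraries by a mean of 0.84, 1.16, and 1.54 on the log2 scale. The change was 1.09 ± 0.37 (adjusted p = 0.0615) without the block and 1.21 ± 0.21 (adjusted p = 0.000485) with it. The call without the block was lost in 3 of 18 omissions (suspension + replicate 2, suspension + replicate 3, or suspension − replicate 3). Txnrd1 was called at 4.4 mg/ml without the block (1.43 ± 0.48, adjusted p = 0.0736), and with the block at 2.6 mg/ml (1.59 ± 0.27), 3.5 mg/ml (1.13 ± 0.27), and 4.4 mg/ml (1.53 ± 0.27), though not at 1.7 mg/ml (0.57 ± 0.27, adjusted p = 0.320). Without 2.6 mg/ml replicate 3, the value at 2.6 mg/ml with the block was 0.99 (adjusted p = 0.0173). The call without the block at 4.4 mg/ml was lost in 6 omissions (replicate 1 or 2 of that gel, or a suspension library of replicate 2 or 3), and the call with the block at 3.5 mg/ml was lost without replicate 1 of that gel. Txnrd1 overlaps Eid3 on the same strand and Gm38560 and Gm47073 on the other.

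In replicate 1, Prdx1 was at 758 and 743 CPM in suspension − and suspension +, and at 1218, 1229, 1434 and 1374 CPM in the gels. Prdx1 in replicate 2 had 169.6 and 329.6 CPM in suspension, then 569, 526, 716 and 1004 CPM across the gels. For Prdx1, replicate 3 held 158 and 159 CPM in suspension, and its gels held 434, 664, 326 and 593 CPM. The 6 suspension libraries of Prdx1 spanned 158 to 758 CPM and the gels 326 to 1434 CPM, with no overlap within a replicate. Prdx1 differed by 0.80, 1.53, and 1.61 (log2) within replicates 1, 2, and 3. Its change was 1.12 ± 0.44 without the block, just outside the threshold (adjusted p = 0.106), and 1.31 ± 0.20 with the block (adjusted p = 0.000185). With the block, all 4 densities were called, at 1.10 ± 0.26, 1.33 ± 0.26, 1.18 ± 0.26, and 1.61 ± 0.26 from 1.7 to 4.4 mg/ml, and at 1.7 mg/ml the call was lost without any 1 of its own libraries or suspension + replicate 3. Over all gels without the block, Prdx1 passed in 5 of 18 omissions, reaching 1.72 without suspension − replicate 1, and also without suspension + replicate 1 or replicate 3 at 2.6, 3.5, or 4.4 mg/ml.

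In replicate 1, Srxn1 was at 351 and 306 CPM in suspension − and suspension +, and at 336, 351, 247 and 166 CPM in the gels. Srxn1 in replicate 2 had 128 and 122 CPM in suspension, then 194, 199, 173 and 147 CPM across the gels. For Srxn1, replicate 3 held 111 and 87.0 CPM in suspension, and its gels held 136, 148, 129 and 97.5 CPM. Srxn1 was highest in replicate 1 and lowest in replicate 3 in 6 of 6 groups, as Hmox1 was, but its gels and suspension libraries overlapped in replicates 1 and 3. The change over all gels was 0.04 ± 0.32 (log2, adjusted p = 0.946) and 0.17 ± 0.15 with the block (adjusted p = 0.424). Within the gels, Srxn1 was lowest at 4.4 mg/ml in 3 of 3 replicates.

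**Figure D2:**
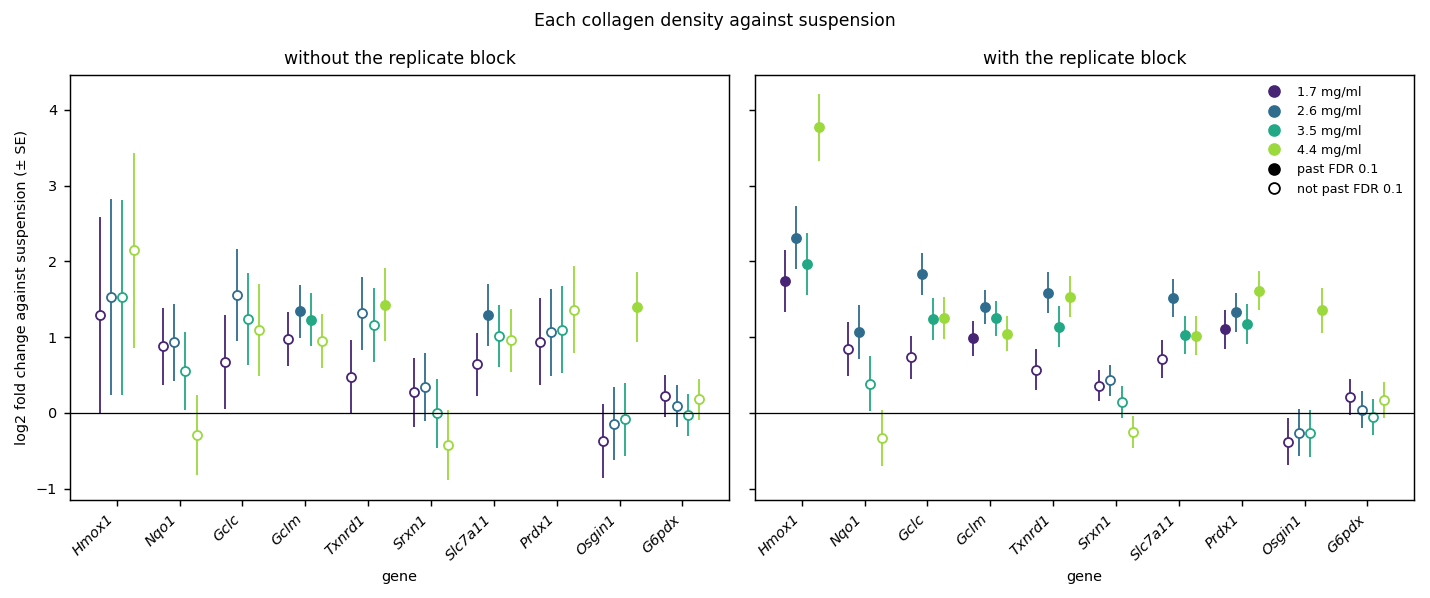
Log2 fold change of each NRF2 target gene at each collagen density against both suspension groups, with SE bars, without the replicate block on the left and with it on the right. Filled points passed a false discovery rate of 0.1 and open points did not. Across densities, 0, 2, 1, and 2 genes are filled on the left and 3, 7, 6, and 7 on the right, from 1.7 to 4.4 mg/ml. The shares of all genes called higher were 0.0361%, 4.29%, 1.97%, and 6.55% without the block. With the block they were 1.5%, 12%, 8.03%, and 15.8%.

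Osgin1, which encodes a growth-inhibiting protein induced by oxidative stress, was called at 4.4 mg/ml and at no other density in either fit. In replicate 1, Osgin1 was at 35.5 and 44.1 CPM in suspension − and suspension +, and at 31.9, 38.1, 55.1 and 78.0 CPM in the gels. Osgin1 in replicate 2 had 18.7 and 39.6 CPM in suspension, then 21.3, 31.9, 17.6 and 123 CPM across the gels. For Osgin1, replicate 3 held 18.7 and 27.4 CPM in suspension, and its gels held 16.8, 11.6, 12.3 and 37.4 CPM. In each replicate, the 4.4 mg/ml library was the highest of the 6, while the 3 lower densities lay within or below the range of suspension in replicates 2 and 3. Osgin1 was higher at 4.4 mg/ml by 1.40 ± 0.46 (log2, adjusted p = 0.0675) without the block and by 1.35 ± 0.30 with it (adjusted p = 0.00341). At the other densities, its values with the block were -0.38 ± 0.31, -0.26 ± 0.31, and -0.27 ± 0.31 from 1.7 to 3.5 mg/ml, none of which passed. In replicates 2 and 3, though not in replicate 1, the 4.4 mg/ml library also held the highest sum of macrophage markers given above. Leaving out 4.4 mg/ml replicate 2 lowered the value to 0.94 without the block (adjusted p = 0.300) and to 0.86 with it, where the call held (adjusted p = 0.0516). Without the block, 6 of the 18 omissions ended the call, including 4.4 mg/ml replicate 1 and each suspension library of replicates 2 and 3.

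G6pdx encodes glucose-6-phosphate dehydrogenase, the entry step of the pentose phosphate pathway that supplies NADPH to both the glutathione and the thioredoxin systems. In replicate 1, G6pdx was at 380.4 and 444 CPM in suspension − and suspension +, and at 513, 502, 455 and 420.1 CPM in the gels. G6pdx in replicate 2 had 256 and 469 CPM in suspension, then 433, 502, 371 and 478 CPM across the gels. For G6pdx, replicate 3 held 435 and 316 CPM in suspension, and its gels held 393, 221, 299 and 401 CPM. The gels spanned 221 to 513 CPM and suspension 256 to 469 CPM, with overlap in every replicate. The change was 0.12 ± 0.20 (log2, adjusted p = 0.747) and 0.09 ± 0.17 with the block (adjusted p = 0.720). G6pdx overlaps Ikbkg on the opposite strand.

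Counted by density, the number of the 10 genes that were higher than in suspension without the block was 0, 2, 1, and 2 from 1.7 to 4.4 mg/ml. The shares of all genes that passed in this direction were 0.0361%, 4.29%, 1.97%, and 6.55% in the same order. At 1.7 mg/ml, 1 of the 10 genes had an unadjusted p under 0.05 in edgeR, a cutoff for which no share of all genes is given here. At that density, DESeq2 without the block called 0, against 1.02% of all genes. With the block in edgeR, the counts were 3, 7, 6, and 7, against 1.5%, 12%, 8.03%, and 15.8% of all genes. Without the block, leaving out either suspension library of replicate 1 added calls at 4.4 mg/ml for Hmox1, Gclc, Gclm, Slc7a11, and Prdx1 and at 2.6 mg/ml for Gclc and Txnrd1, and Prdx1 passed at 2.6 mg/ml without suspension − replicate 1. Gclm at 4.4 mg/ml also passed without replicate 3 at any of the other densities.

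An overall test of any difference among the 6 groups called 0 of the 10 genes in edgeR without the block, where 4.90% of all genes passed. Of the 10, 2 had an unadjusted p under 0.05, a cutoff for which no share of all genes is given here. DESeq2 without the block called 2, against 14.6% of all genes. With the block, the edgeR test called 7 (Hmox1, Gclc, Gclm, Txnrd1, Slc7a11, Prdx1, and Osgin1), against 24.3% of all genes.

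A linear trend of the log2 level per mg/ml over the 4 densities was called for 0 of the 10 genes without the block (edgeR), against 0.00722% of all genes. Of the 10 genes, 1 had an unadjusted p under 0.05, a cutoff for which no share of all genes is given here. DESeq2 without the block called 0, against 0.881% of all genes. With the block in edgeR, Osgin1 was called, with a slope of 0.58 ± 0.13 (adjusted p = 0.0571), and 1.51% of all genes passed. That call was lost when any 1.7 mg/ml library or 4.4 mg/ml replicate 2 was left out. Hmox1 had a slope of 0.64 ± 0.18 (adjusted p = 0.117) and Nqo1 one of -0.47 ± 0.15 (adjusted p = 0.159), both with the block. Without 4.4 mg/ml replicate 2, the slope of Hmox1 with the block fell to 0.34, and it passed without 4.4 mg/ml replicate 1 (0.83, adjusted p = 0.0322) or 2.6 mg/ml replicate 3 (0.68, adjusted p = 0.0542). The slope of Txnrd1 with the block also passed without 2.6 mg/ml replicate 3 (adjusted p = 0.0334). In DESeq2 with the block, Osgin1 and Hmox1 were called as rising and Nqo1 as falling, where 5.86% of all genes passed, and with the block and GC and length offsets in edgeR, Txnrd1 was called as rising as well, where 5.12% of all genes passed. The slopes within replicates were positive in 3 of 3 for Osgin1 (0.49, 0.74, and 0.39) and Hmox1 (0.0022, 0.98, and 0.53), and also in 3 of 3 for Txnrd1, Gclc, and Prdx1. They were negative in 3 of 3 for Nqo1 (-0.36, -0.38, and -0.63) and Srxn1 (-0.39, -0.15, and -0.18).

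**Figure D3:**
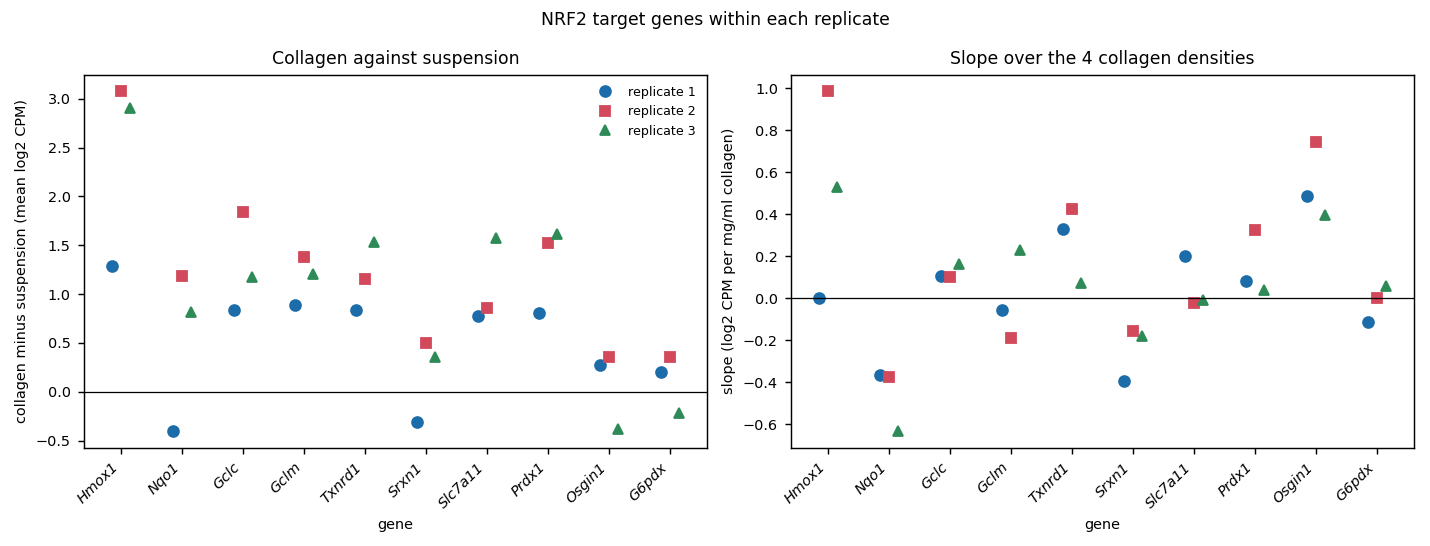
Mean log2 CPM of the 4 gels minus that of the 2 suspension libraries within each replicate (left) and the slope of log2 CPM per mg/ml collagen within each replicate (right), for each NRF2 target gene. Colors and shapes mark the replicate. All 3 differences are above 0 for 6 genes with separated libraries, a separation that 2.43% of all genes showed. The slopes of Osgin1 are 0.49, 0.74, and 0.39.

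The 2 suspension groups were compared with each other by their titles. In edgeR, 0 of the 10 genes were called without or with the block, where 0% of all genes passed, and 855 and 1960 of 13844 genes had an unadjusted p under 0.05, respectively. Of the 10 genes, 0 without the block and 1 with it (Slc7a11) had an unadjusted p under 0.05, and DESeq2 called 0 of the 10 in both designs, against 0% of all genes without the block and 1.4% with it. Slc7a11 differed by -0.70 ± 0.30 (log2, suspension + minus suspension −, adjusted p = 0.330 with the block), and this value was 0.03 when GC content and length were also corrected.

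Among the 10 regulators of NRF2, 3 were higher and 1 was lower in the gels than in suspension without the block, and 6 and 1 with it, against the shares of all genes given above (7.78% higher and 12.4% lower, or 15.6% and 19.3% with the block). The median log2 fold change over the 10 regulators was 0.37 without the block, against 0.00 over all genes. Nfe2l2, which encodes NRF2 itself, rose by 0.90 ± 0.29 (log2, adjusted p = 0.0491), Cul3 by 0.89 ± 0.25 (adjusted p = 0.0282), and Sqstm1, whose p62 protein sequesters KEAP1, by 1.06 ± 0.34 (adjusted p = 0.0479). Keap1, the inhibitor, fell by 0.51 ± 0.18 (adjusted p = 0.0801). The call of Cul3 held in 18 of 18 single omissions, that of Sqstm1 in 16 (lost without suspension + replicate 2 or 3), that of Nfe2l2 in 15 (lost without those or suspension − replicate 3), and that of Keap1 in 5. Keap1 was not called by DESeq2 without the block (-0.47, adjusted p = 0.107) or after correction for GC content and length (-0.17, adjusted p = 0.580).

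In replicate 1, Nfe2l2 was at 117 and 79.7 CPM in suspension − and suspension +, and at 108, 143, 206 and 341 CPM in the gels. Nfe2l2 in replicate 2 had 78.8 and 51.7 CPM in suspension, then 85.2, 104, 88.4 and 125 CPM across the gels. For Nfe2l2, replicate 3 held 45.3 and 53.2 CPM in suspension, and its gels held 73.9, 161, 75.4 and 126 CPM. The gels of replicates 2 and 3 all lay above both suspension libraries for Nfe2l2, and in replicate 1 the 1.7 mg/ml gel lay between them. At 4.4 mg/ml, Nfe2l2 was higher than in suspension by 1.49 ± 0.38 (log2, adjusted p = 0.0207).

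At 4.4 mg/ml, 5 of the 10 regulators were higher without the block and 0 lower, and with the block 6 were higher and 1 lower, against 6.55% of all genes higher and 8.29% lower, or 15.8% and 16.2% with the block. Of the small MAF genes, whose proteins pair with NRF2 on DNA, 2 were among them. Maff was higher at 4.4 mg/ml by 2.04 ± 0.62 (log2, adjusted p = 0.05) and Mafk by 1.24 ± 0.43 (adjusted p = 0.0797), whereas Mafg stood at 0.52 ± 0.57 (adjusted p = 0.606). Mafk at 4.4 mg/ml held 85.9, 68.0, and 31.9 CPM in replicates 1, 2, and 3, the highest level of each replicate. Maff at 4.4 mg/ml held 121, 147, and 24.5 CPM, again the highest of each replicate, but in replicate 3 suspension + was close, at 24.0 CPM. The slopes of Maff within replicates 1, 2, and 3 were 0.46, 1.06, and 0.011 per mg/ml. Mafk was the regulator with a trend over density once the block was used (0.51 ± 0.09 per mg/ml, adjusted p = 0.0325). Bach1, which represses Hmox1, had a change of 0.37 ± 0.25 over all gels (adjusted p = 0.378), Rbx1 of 0.22 ± 0.19 (adjusted p = 0.495), and Nfe2l1, an NRF2 relative, of -0.05 ± 0.15 (adjusted p = 0.862), which became 0.25 after correction for GC content and length.

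**Figure D4:**
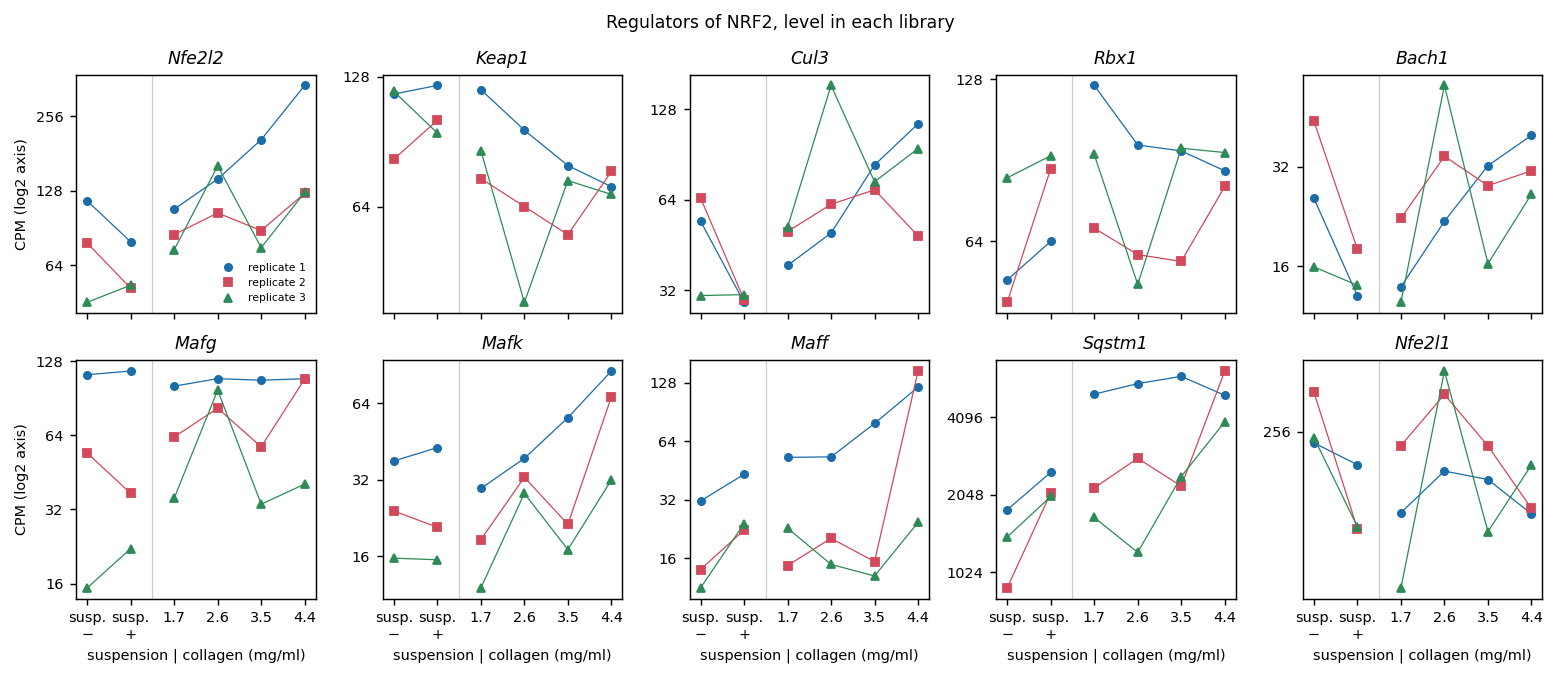
Level of each of 10 NRF2 regulators in each library, in CPM on a log2 axis, arranged as for the target genes with suspension − and suspension + on the left and collagen densities in mg/ml on the right. Points are single libraries and colors and shapes mark the replicate. Mafk and Maff are highest at 4.4 mg/ml in each replicate, at 85.9 and 121 CPM in replicate 1. In replicate 3, Maff is at 24.5 CPM at 4.4 mg/ml and at 24.0 CPM in suspension +.

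The other genes of these pathways were read from lists that hold none of the 10 genes, and their counts stand beside 7.78% of all genes higher and 12.4% lower without the block, or 15.6% and 19.3% with it. Of 14 further glutathione genes, 1 was higher in the gels and 0 lower without the block (3 and 0 with it). It was Gpx1, which encodes the glutathione peroxidase of the cytosol, at 0.53 ± 0.20 (log2, adjusted p = 0.0937). Of 10 further thioredoxin and peroxiredoxin genes, 1 was higher (4 higher and 2 lower with the block), namely Prdx2 at 0.71 ± 0.24 (adjusted p = 0.0585). Of 10 NADPH-supplying genes, Me2, a malic enzyme of mitochondria, was the only one called, lower at -0.60 ± 0.15 (adjusted p = 0.0167), and with the block 1 was higher and 1 lower. The median log2 fold changes of the 3 lists were 0.44, 0.13, and 0.19. Of the calls in these lists, that of Gpx1 held in 4 of 18 single omissions, that of Prdx2 in 15 (lost without suspension + replicate 2 or 3 or suspension − replicate 2), and that of Me2 in 18. The counts without the block in these 3 lists were near or below the shares over all genes.

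Against the same shares of all genes, 1 of 10 genes was higher and 1 lower without the block in each of the next 2 lists. Of 10 genes of heme and iron handling, Slc40a1, the iron exporter ferroportin, was higher (1.27 ± 0.31, adjusted p = 0.0130) and Fech, the enzyme that inserts iron into heme, was lower (-0.48 ± 0.19, adjusted p = 0.0962). The call of Fech held in 2 of 18 omissions. With the block, 5 were higher and 2 lower. Of 10 detoxification and superoxide genes, Sod2, the superoxide dismutase of mitochondria, was higher (1.04 ± 0.25, adjusted p = 0.0112) and Ephx1, an epoxide hydrolase, was lower (-0.91 ± 0.31, adjusted p = 0.0627, lost without any suspension library of replicate 2 or 3). With the block, 3 were higher and 1 lower. The median changes of these lists were 0.51 and -0.01.

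Slc7a11 is also a target of ATF4, the transcription factor of the amino acid and stress response, so 12 genes of that response were examined. Atf4 was higher in the gels by 1.47 ± 0.37 (log2, adjusted p = 0.0151), whereas Asns, asparagine synthetase, changed by -0.63 ± 0.22 (adjusted p = 0.0689), and Sesn2 changed by -0.49 ± 0.17 (adjusted p = 0.0620). In all, 1 of the 12 was higher and 2 were lower without the block, and 3 were higher and 4 lower with it, where the shares of all genes were 7.78% and 12.4% without and 15.6% and 19.3% with the block. Their median change was -0.17. The call of Atf4 held in 18 of 18 omissions, that of Asns in 12, and that of Sesn2 in 13.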

How the data were processed

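Stranded TruSeq libraries of mouse bone marrow–derived DCs were sequenced as single 50-base reads. The authors aligned reads with STAR 2.7.0f to GRCm38 and deposited 1 table of whole-number counts per gene, with Ensembl identifiers. The counting tool and the handling of multi-mapped reads were not given in the sources used here. Depth was 13062944 to 28059839 counts per library. The SEs are those of the fits over libraries. Without the block they include the spread between replicates, and with it they leave out shifts that a replicate shared across the groups. The floor of 3 counts covers counting error only.

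Identifiers were matched to symbols in the GENCODE M21 annotation of GRCm38 (29866 of 29875). Genes were filtered with filterByExpr (13844 kept) and tested with edgeR 4.0.16 (R 4.3.3) by quasi-likelihood F-tests on TMM-scaled counts, with 1 coefficient for each of the 6 groups, all 18 libraries in each fit, and Benjamini-Hochberg adjustment over all genes tested. CPM values are TMM-scaled. DESeq2 1.42.0, other scalings, no filter, GC and length offsets, fits restricted to the compared groups, a threshold of 0.05, and omission of each library or replicate were alternatives. The scripts were tested on simulated data without the block. For collagen against suspension, 53 of 200 genes given a log2 change of 1 were recovered, with 5 false calls. For the trend, 24 of 200 genes given a slope of 0.5 per mg/ml were recovered, with 2 false calls. A gene that did not pass without the block can thus still have changed.

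The replicate block used the replicate number as a further factor. The pairing comes from library names, in which each number marks 1 date and 1 lane. Of 45 same-numbered pairs of libraries, 39 had residuals correlated above 0.1 (mean r = 0.434). Other pairs had a mean r of -0.259, but residuals were taken from group means, which pushes that value below 0 by construction. The biological coefficient of variation was 49.0% without and 33.1% with the block.

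The 10 genes, the regulators, and the other lists were chosen with earlier results of these data known. All 10 genes and all 10 regulators are named. From each other list, up to 3 genes are named that passed in collagen against suspension with the largest change and the same sign in 3 of 3 replicates. Omissions of each library under the block were added after the data were seen.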

Additional observations from a re-analysis of the deposited data

How the results depend on the processing

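The number of the 10 genes called is given for any difference among the groups, for collagen against suspension, for each density from 1.7 up to 4.4 mg/ml, and for the trend, in that order, from 0, 3, 0, 2, 1, 2, and 0 in the fit without the block. The replicate block gave 7, 6, 3, 7, 6, 7, and 1 (24.3%, 34.8%, 2.91%, 21.6%, 18.4%, 31.9%, and 1.51% of all genes in either direction), and with GC and length offsets as well it gave 9, 6, 5, 8, 6, 7, and 4, where 26.9%, 37.1%, 4.38%, 24.9%, 18.1%, 34.8%, and 5.12% of all genes passed. DESeq2 gave 2, 5, 0, 4, 1, 5, and 0 without the block and 8, 6, 4, 7, 6, 7, and 3 with it, where 14.6%, 24.7%, 1.02%, 13.2%, 9.70%, 20.3%, and 0.881% of all genes passed without the block and 38.3%, 38.9%, 7.91%, 26.5%, 23.1%, 36.3%, and 5.86% with it. Without the filter on low counts the numbers were 7, 6, 0, 6, 5, 7, and 1 (6.67%, 9.09%, 0.264%, 4.11%, 2.36%, 7.98%, and 0.465% of 29875 genes), and GC and length offsets alone gave 1, 3, 0, 2, 0, 2, and 0. Total counts gave 0, 3, 0, 1, 0, 0, and 0, and DESeq2 size factors in edgeR gave 0, 4, 0, 2, 1, 3, and 0. A threshold of 0.05 gave 0, 2, 0, 1, 0, 0, and 0, and fits restricted to the compared groups gave 0, 0, 0, 1, and 0 from 1.7 mg/ml to the trend. The suspension comparison stayed at 0 throughout. Where no share of all genes is given, a count does not show whether the 10 genes moved apart from all genes. The cause of the differences between settings was not tested.

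Leaving out a replicate or a library gave 0 to 1 for any difference, 0 to 6 for collagen against suspension, 0 to 6 for 2.6 mg/ml, 0 to 1 for 3.5 mg/ml, and 0 to 7 for 4.4 mg/ml. For collagen against suspension, the number was 6 without replicate 1 and 0 without replicate 2. In those fits, 11.1% and 4.58% of all genes passed in either direction, respectively, so the calls over all genes changed as well. The ranges above are given without shares of all genes, and do not show whether the NRF2 target genes moved apart from all genes. Such omissions reversed Hmox1 at single densities (-0.97 to 2.94 at 1.7, -0.28 to 3.18 at 2.6, and -0.69 to 3.19 at 3.5 mg/ml), all without the block. They also reversed values that never passed: at 4.4 mg/ml Nqo1 (-0.76 to 0.34, or -0.47 to 0.0092 with the block) and Srxn1 (-0.67 to 0.21), over all gels Srxn1 (-0.11 to 0.48), Osgin1 (-0.027 to 0.42, or -0.018 to 0.22 with the block), Rbx1 (-0.029 to 0.41), and Nfe2l1 (-0.11 to 0.061). The same held for the trends of Gclc (-0.035 to 0.29), Slc7a11 (-0.052 to 0.16), Gclm (-0.12 to 0.062, or -0.11 to 0.072 with the block), and G6pdx (-0.056 to 0.034, or -0.044 to 0.018 with the block).

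The trend of Gclm turned from -0.02 to 0.0032 with the replicate block, 0.011 with the block and offsets, and 0.014 in DESeq2 with the block. Offsets moved Nfe2l1 to 0.25, with or without the block. Total counts moved the median of all genes in collagen against suspension to -0.15 and at 4.4 mg/ml to -0.28, and gave 604 genes higher and 2285 lower against 1077 and 1713. Srxn1 (-0.13) and G6pdx (-0.036 over all gels and -0.098 at 4.4 mg/ml) were negative under that scaling. Each of the 10 genes had at least 116 counts in every library, and each single density rested on 3 libraries. What set the precision of single densities was not tested.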
